A study of Mus musculus with 12 samples.

Results

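The genes described here are 9 genes of apoptotic cell uptake, namely the TAM receptors Mertk, Axl and Tyro3, the phosphatidylserine receptors Timd4 and Havcr2, the bridging molecules Gas6 and Mfge8, and the integrin chains Itgav and Itgb3. They were chosen by symbol, and all 9 are among the 38739 symbols of the expression table. The table covers 12 RNA-seq libraries of bone marrow-derived macrophages (BMDMs), cells grown out of mouse bone marrow, with 3 libraries in each of 4 groups. The groups were wild-type (WT) and cGAS-/- cells, each untreated (UT, in medium) or treated with lipopolysaccharide (LPS, an outer membrane component of Gram-negative bacteria). Per the methods, both genotypes were male C57BL/6J mice aged 8 weeks, and the cGAS-/- mice lacked cyclic GMP-AMP synthase, the cytosolic DNA sensor, in every cell, so the deletion was present throughout bone marrow culture and was not limited to the LPS exposure. The labels give LPS at 100 ng/mL for 1 h, whereas the methods of the study give 150 ng/mL for 24 h, and the sources used here do not settle which was applied to these libraries. The extraction text of the labels also names neutrophils as the source of the RNA, whereas the cell type, source and growth labels name macrophages.

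Uptake of dying cells (efferocytosis) begins when phosphatidylserine appears on the outer leaflet of the apoptotic cell membrane. TIM receptors such as TIM-4 and TIM-3 bind this lipid directly, whereas Gas6 and MFG-E8 are secreted proteins that bind it and link the dying cell to receptors on the phagocyte. Gas6 is the ligand that activates the TAM receptor tyrosine kinases (Tyro3, Axl and MerTK), and MFG-E8 presents an RGD motif to integrins containing the alpha v chain. TAM signalling is also known for restraining Toll-like receptor responses in macrophages and dendritic cells, through induction of SOCS proteins.

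The promoters of 4 of the members are shown because these genes carried the largest LPS differences (Gas6, Havcr2 and Mfge8) or encode the main macrophage TAM receptor (Mertk). Each run holds the 250 bases before and the 50 bases from the transcription start, from RefSeq on GRCm38.p6, and the coordinates are given on that build. Capitals mark letters matching GGGNNNNNCC (an NF-kB-like pattern), TGANTCA (AP-1), GAAANNGAAA (ISRE-like), GAGGAAGT (PU.1), TGCTGA (MAF) or AGGTCA (nuclear receptor) on either strand. The Mertk window is chr2:128698665-128698964 (+ strand), the Gas6 window chr8:13494486-13494785 (- strand), the Mfge8 window chr7:79149011-79149310 (- strand) and the Havcr2 window chr11:46454681-46454980 (+ strand).
Mertk: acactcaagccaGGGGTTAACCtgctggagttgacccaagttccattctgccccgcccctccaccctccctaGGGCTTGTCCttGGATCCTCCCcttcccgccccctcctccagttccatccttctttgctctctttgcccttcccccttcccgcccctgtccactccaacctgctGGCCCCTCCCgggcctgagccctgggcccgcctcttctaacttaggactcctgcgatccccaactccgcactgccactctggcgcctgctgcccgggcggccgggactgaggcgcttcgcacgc
Gas6: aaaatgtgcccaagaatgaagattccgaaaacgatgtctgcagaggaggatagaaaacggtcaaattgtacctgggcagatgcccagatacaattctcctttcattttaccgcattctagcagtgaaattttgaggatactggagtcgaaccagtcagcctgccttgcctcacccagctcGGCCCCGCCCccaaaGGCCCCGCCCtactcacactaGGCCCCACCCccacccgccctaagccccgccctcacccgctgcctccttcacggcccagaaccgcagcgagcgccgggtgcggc
Mfge8: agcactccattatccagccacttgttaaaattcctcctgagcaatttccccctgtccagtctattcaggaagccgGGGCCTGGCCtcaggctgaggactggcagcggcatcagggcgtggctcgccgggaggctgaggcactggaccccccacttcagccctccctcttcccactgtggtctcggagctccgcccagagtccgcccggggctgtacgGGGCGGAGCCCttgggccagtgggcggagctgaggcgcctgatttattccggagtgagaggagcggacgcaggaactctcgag
Havcr2: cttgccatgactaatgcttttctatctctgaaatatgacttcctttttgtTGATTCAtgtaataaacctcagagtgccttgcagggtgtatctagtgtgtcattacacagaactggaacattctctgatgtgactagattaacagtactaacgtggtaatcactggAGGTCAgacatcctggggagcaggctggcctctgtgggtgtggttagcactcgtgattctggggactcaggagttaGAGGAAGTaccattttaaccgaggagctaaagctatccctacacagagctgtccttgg

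In these windows, the NF-kB-like pattern matched 4 times in Mertk, 3 times in Gas6 and 3 times in Mfge8, and 0 times in Havcr2. Of the 8 member promoters searched (all but Itgb3), 7 held it, against 50.8% of all 32851 promoters of the same length. Its matches can contain the GC box GGGCGG, which is not capitalised, was found in 6 of the 8 promoters, and occurs in 35.7% of all promoters. The Havcr2 window differed in composition, with 45.3% G and C against 52.7% in the median promoter and 66.0% in Mertk. Of the 8 windows, that of Havcr2 alone had a match to AP-1 (7.81% of all promoters) and held a PU.1 match as Itgav did (3.20% of all promoters). The nuclear receptor letters were in Havcr2 and Timd4 (16.3% of all promoters) and the MAF letters in Timd4 (19.5%). The ISRE-like letters were in none of the 8 windows and in 3.44% of all promoters. These are matches of letters, which do not show binding of any factor.

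The values are TPM (transcript abundance scaled to a fixed total) averaged over the transcripts listed for a symbol, so the level of a gene also depends on how many transcripts were listed. Cgas, the deleted gene, ran from 1.19 to 3.25 TPM in the 6 WT libraries and from 0.0703 to 0.291 TPM in the 6 cGAS-/- libraries, as the labels state. All 10 listed macrophage markers (Cd68, Itgam, Lyz2 and others) were at or above 1 TPM in every library. They summed to 21835 to 37889.9 TPM, and the 8 listed neutrophil markers to 35.9 to 353 TPM. Most of the macrophage sum was Lyz2 alone, with group means of 16428.8 to 33126.5 TPM. The WT LPS libraries differed from one another more than those of any other group, with pairwise correlations across genes of 0.772 to 0.911 against 0.960 to 0.974 elsewhere. WT LPS replicate 3 stood furthest apart, with a column total of 709802 TPM against 447189 to 503156 in the other 11, and with 31.8% of its total in Fth-ps3, a ferritin heavy chain pseudogene. The study calls the libraries of a group technical replicates, and the labels name no separate mice, so the SDs and p-values below measure only the spread between these libraries and not that between mice.

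In WT UT cells, Gas6 had the highest level of the members, at 259 ± 10.5 TPM (SD, n = 3). Mfge8 (22.6 ± 1.58 TPM) and Mertk (21.4 ± 1.27 TPM) followed, and their libraries overlapped. Havcr2 (10.9 ± 0.868 TPM), Itgav (8.37 ± 1.31 TPM), Axl (5.49 ± 1.12 TPM) and Itgb3 (1.78 ± 0.223 TPM) came next, each separated from its neighbours in this order in every library. Gas6, which activates TAM receptors, was thus listed far above Mertk and Axl in these cells. The values are averages over the listed transcripts, so this order need not be the order of abundance. All 12 Gas6 values had the digits of a single transcript's value, against 3 of 12 for Mertk and 2 of 12 for Axl. In cGAS-/- UT cells the order of the 7 means was the same, but the libraries of Havcr2 (14.2 to 17.4 TPM) overlapped with those of Mertk (16.6 to 18.4 TPM) and of Itgav (13.4 to 14.8 TPM).

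**Figure D1:**
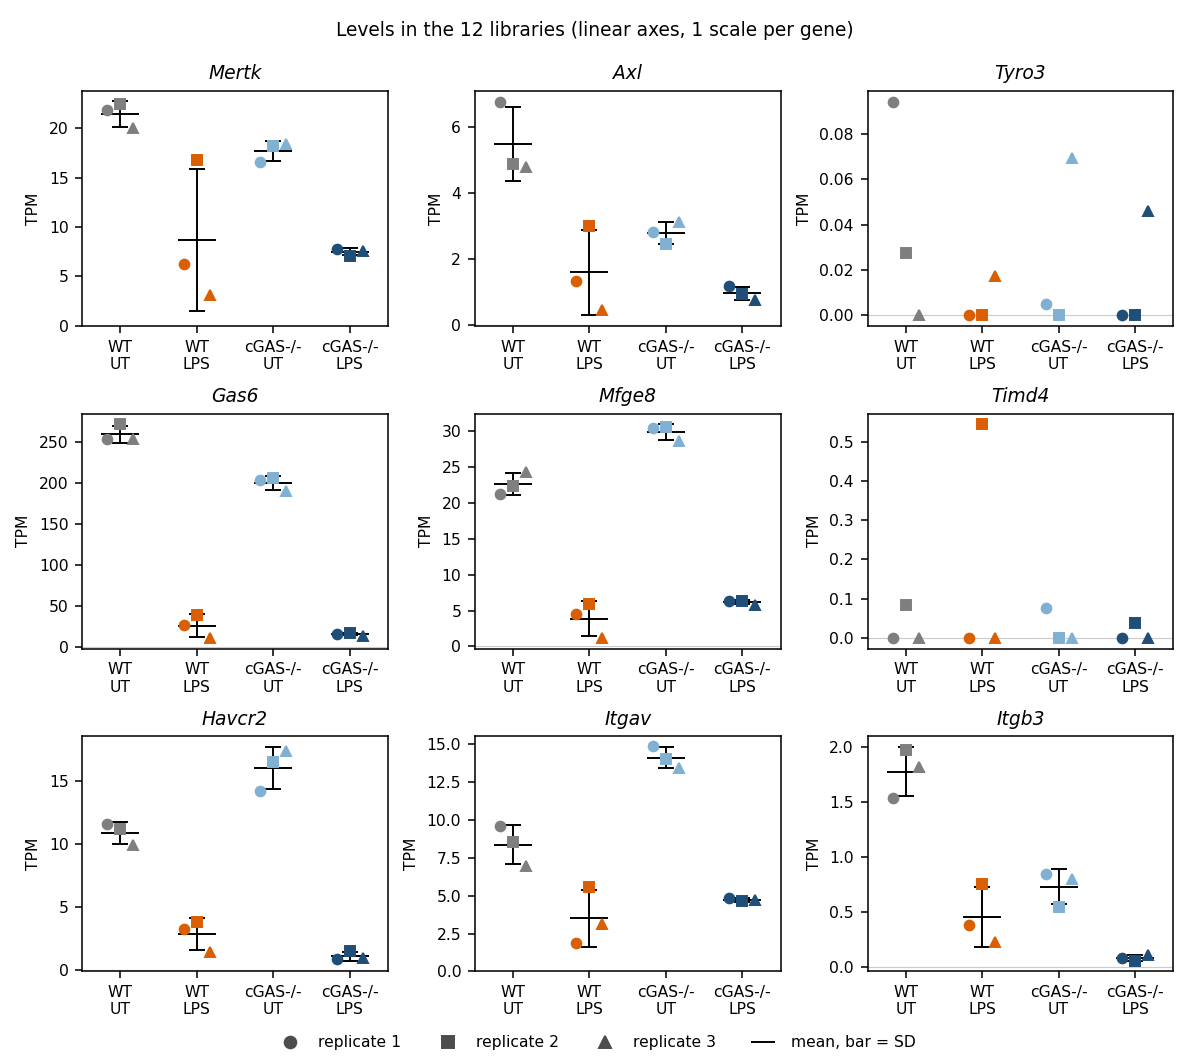
TPM of the 9 members in the 12 libraries, with 1 panel and 1 linear scale per gene. Points are libraries (circle, square and triangle for replicates 1, 2 and 3), and for the 7 tested genes the horizontal line is the group mean and the bar the SD (n = 3). All 7 lie lower in LPS than in UT libraries of the same genotype, and WT LPS replicate 2 is the highest WT LPS library for each of them.

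Tyro3 and Timd4 were at the bottom of the table in every group. Tyro3, the TAM receptor best known from the nervous system, was listed at 0 in 6 libraries and reached at most 0.0943 TPM. Timd4, which marks resident macrophages of the peritoneum and other tissues, was listed at 0 in 8 libraries and was highest in WT LPS replicate 2, at 0.544 TPM. Both failed the filter of 1 TPM, after rescaling each library to a common total, in at least 3 of 12 libraries, and neither was tested. The 7 other members passed it, 6 of them with at least 11 libraries at or above the filter and Itgb3 with 7 (3 WT UT, 1 WT LPS and 3 cGAS-/- UT).

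The tested members were lower in LPS-treated than in UT cells. In WT cells, 7 of the 7 tested members were lower after LPS at an adjusted p under 0.05 (limma, Benjamini-Hochberg over 11887 genes), where 23.3% of all genes were called lower. In cGAS-/- cells, 5 of 7 were called lower (Gas6, Havcr2, Mfge8, Itgav and Itgb3), where 9.06% of all genes were. With the further threshold of a log2 difference beyond 2 that the methods of the study use, Gas6 and Mfge8 remained in WT (2.89% of all genes) and Gas6, Mfge8 and Havcr2 in cGAS-/- cells (1.56%). The LPS and UT libraries of the same genotype did not overlap for any of the 7, which held in the lower direction for 32.9% of all genes in WT and 40.2% in cGAS-/- cells. The median difference of the 7 was -1.47 on the log2(TPM + 1) scale in WT and -1.40 in cGAS-/- cells, against -0.46 and -0.20 for the median gene. On this scale, the change of a gene with a low level is understated. Among markers of other cell types, the sums for B cells, osteoclasts and dendritic cells were lower with LPS in both genotypes. The 7 B cell markers went from 108 to 134 TPM down to 30.7 to 45.0 TPM in WT and from 19.96 to 28.6 TPM down to 3.08 to 8.89 TPM in cGAS-/- libraries. The 6 osteoclast markers went from 185 to 194 TPM down to 3.80 to 39.5 TPM in WT and from 89.0 to 99.6 TPM down to 11.97 to 12.8 TPM in cGAS-/- libraries, carried by Atp6v0d2 and Ctsk, while the mean of Acp5 (TRAP) was higher with LPS, at 8.36 and 11.05 TPM in WT and 2.81 and 8.42 TPM in cGAS-/- cells. The sum of 5 platelet markers, mostly Pf4, was higher with LPS in cGAS-/- libraries (56.8 to 58.3 against 88.3 to 104.7 TPM) and overlapped in WT (84.7 to 99.5 against 28.9 to 120.7 TPM), and the neutrophil, erythroid and stromal sums overlapped between UT and LPS libraries in both genotypes. The part of these cells in the members' levels was not tested. Less RNA per cell and a change in which cells were present cannot be told apart in these bulk libraries.

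Gas6 fell the most in WT cells. The WT UT libraries stood at 253, 271 and 253 TPM for replicates 1, 2 and 3, and the WT LPS libraries at 27.2, 39.4 and 10.8 TPM. In cGAS-/- cells they stood at 203, 206 and 190.3 TPM without LPS and at 15.5, 16.5 and 13.8 TPM with it. Every LPS library was far below every UT library, and the mean was 10.0-fold lower in WT and 13.1-fold lower in cGAS-/- cells. The log2 differences were -3.45 ± 0.37 (SE, adjusted p = 9.23e-05) and -3.63 ± 0.37 (adjusted p = 6.95e-05; limma). Gas6 is a protein-coding gene at chr8:13515371-13544824 on the minus strand of GRCm39. It overlaps Tmem255b on the opposite strand, which was listed at no more than 0.180 TPM.

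Mfge8, the other bridge, showed a fall of the same direction from a lower starting level. Its WT UT libraries stood at 21.2, 22.4 and 24.3 TPM and its WT LPS libraries at 4.51, 5.89 and 1.17 TPM. The cGAS-/- libraries stood at 30.5, 30.5 and 28.6 TPM without LPS and at 6.38, 6.29 and 5.83 TPM with it. The replicates were tight in 3 groups, whereas WT LPS replicate 3 was well below the other WT LPS libraries. The mean was 5.87-fold lower with LPS in WT and 4.85-fold lower in cGAS-/- cells, with log2 differences of -2.44 ± 0.36 (adjusted p = 0.000683) and -2.11 ± 0.36 (adjusted p = 0.00218; limma). Mfge8 lies at chr7:78783515-78798825 on the minus strand.

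Havcr2 encodes TIM-3, a phosphatidylserine-binding receptor best known as an inhibitory receptor of T cells that is also present on macrophages. Its WT UT libraries stood at 11.6, 11.2 and 9.92 TPM and its WT LPS libraries at 3.25, 3.82 and 1.38 TPM. The cGAS-/- UT libraries stood higher, at 14.2, 16.5 and 17.4 TPM, and the cGAS-/- LPS libraries at 0.844, 1.49 and 0.904 TPM. Havcr2 was therefore highest in cGAS-/- UT cells and lowest in cGAS-/- LPS cells, with 1 of the 3 cGAS-/- LPS libraries above WT LPS replicate 3. The mean was 3.87-fold lower with LPS in WT (log2 difference -1.70 ± 0.27, adjusted p = 0.00111) and 14.9-fold lower in cGAS-/- cells (-3.04 ± 0.27, adjusted p = 2.43e-05; limma). Of other cell types known to carry TIM-3, T and NK cell markers summed to no more than 0.642 TPM over 7 genes in any library. The sum of 5 dendritic cell markers was lower with LPS as Havcr2 was, from 7.32 to 7.67 TPM down to 2.24 to 2.66 TPM in WT and from 4.38 to 6.31 TPM down to 1.59 to 2.77 TPM in cGAS-/- libraries, and its part in the Havcr2 level was not tested. This sum was carried by Itgax (means of 6.77 and 0.777 TPM in WT, 4.60 and 1.04 TPM in cGAS-/- cells), whereas Xcr1 was higher with LPS (0.0958 and 1.37 TPM in WT, 0.0538 and 0.699 TPM in cGAS-/- cells), as was Ccr7 in cGAS-/- cells (0.307 and 0.401 TPM). The gene lies at chr11:46345673-46374149 on the plus strand.

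Mertk, the TAM receptor that mature macrophages use for uptake of apoptotic cells, was less uniform. Its WT UT libraries stood at 21.8, 22.4 and 20.01 TPM, whereas its WT LPS libraries spread over 6.22, 16.8 and 3.10 TPM. The cGAS-/- UT libraries stood at 16.6, 18.2 and 18.4 TPM and the cGAS-/- LPS libraries at 7.80, 7.10 and 7.56 TPM. The LPS libraries of cGAS-/- cells were tightly grouped, and WT LPS replicate 2 was close to the UT level. The log2 difference with LPS was -1.47 ± 0.41 in WT (adjusted p = 0.0235) and -1.14 ± 0.41 in cGAS-/- cells (95% interval -2.05 to -0.23, adjusted p = 0.101; limma). The call in WT was lost without WT LPS replicate 1 (adjusted p = 0.0526) and without any of the WT UT libraries (0.0587 to 0.0712). Under TMM factors the WT difference was -0.95. The difference in cGAS-/- cells was called without WT LPS replicate 2 (adjusted p = 0.00327) or replicate 3 (0.00787), libraries that enter this comparison only through the shared estimate of the spread (20.9% and 31.2% of all genes called). It was also called with only the 6 cGAS-/- libraries in the fit (adjusted p = 5.26e-05), with each library weighted by its own spread (5.57e-06) and under quantile normalization (0.0196; limma). The gene lies at chr2:128540729-128645080 on the plus strand.

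Axl, the TAM receptor known to rise with interferon and inflammatory stimulation, was lower in LPS-treated WT cells here. Its WT UT libraries stood at 6.78, 4.90 and 4.79 TPM and its WT LPS libraries at 1.32, 3.01 and 0.448 TPM. The cGAS-/- libraries stood at 2.83, 2.45 and 3.11 TPM without LPS and at 1.17, 0.931 and 0.761 TPM with it. The UT libraries of cGAS-/- cells were all below those of WT cells and overlapped with WT LPS replicate 2. The log2 difference with LPS was -1.43 ± 0.31 in WT (adjusted p = 0.00716) and -0.96 ± 0.31 in cGAS-/- cells (95% interval -1.65 to -0.27, adjusted p = 0.0673; limma). As for Mertk, the cGAS-/- difference was called without WT LPS replicate 2 (adjusted p = 0.00819) or replicate 3 (0.00589), with only the cGAS-/- libraries (0.00138) and with library weights (0.000111; limma). Axl lies at chr7:25456535-25488329 on the minus strand.

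Itgav encodes the alpha v integrin chain, which pairs with beta 3 and other beta chains to bind MFG-E8. Its WT UT libraries stood at 9.59, 8.52 and 6.99 TPM and its WT LPS libraries at 1.87, 5.58 and 3.10 TPM. In cGAS-/- cells the UT libraries stood at 14.8, 14.0 and 13.4 TPM and the LPS libraries at 4.85, 4.63 and 4.70 TPM. The gap between the highest WT LPS and the lowest WT UT library was small, and the cGAS-/- groups were far apart. The log2 difference was -1.13 ± 0.28 in WT (adjusted p = 0.0131) and -1.40 ± 0.28 in cGAS-/- cells (adjusted p = 0.00576; limma). The WT difference was -0.64 under TMM factors and under quantile normalization. The WT call was lost under TMM factors (limma adjusted p = 0.0880), under quantile normalization (0.0838) and without WT UT replicate 1 (0.0561). Itgav lies at chr2:83554403-83637260 on the plus strand and overlaps the lncRNA Gm13684 on the opposite strand, listed at no more than 0.471 TPM.

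Itgb3 encodes the beta 3 chain, the partner of alpha v in macrophages and osteoclasts and of alpha IIb in platelets. Its levels were low, at 1.54, 1.98 and 1.82 TPM in WT UT and 0.382, 0.751 and 0.225 TPM in WT LPS libraries. The cGAS-/- libraries stood at 0.844, 0.546 and 0.796 TPM without LPS and at 0.0821, 0.0536 and 0.106 TPM with it. All WT UT libraries were above all others and all cGAS-/- LPS libraries below all others, while the WT LPS and cGAS-/- UT libraries overlapped. The log2 difference with LPS was -0.95 ± 0.17 in WT (adjusted p = 0.00206) and -0.67 ± 0.17 in cGAS-/- cells (adjusted p = 0.0197; limma), while the mean TPM was 3.92-fold and 9.02-fold lower. The cGAS-/- call was lost without cGAS-/- UT replicate 1 (adjusted p = 0.0805) or 3 (0.0720) and without any cGAS-/- LPS library (0.0626 to 0.0786). The gene lies at chr11:104498826-104561302 on the plus strand.

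**Figure D2:**
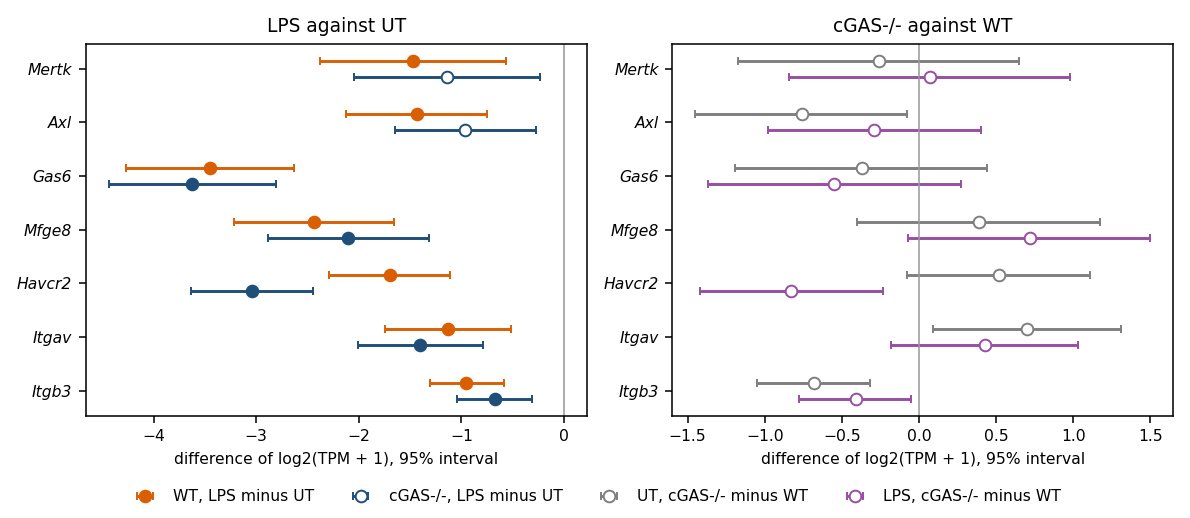
Differences of log2(TPM + 1) for the 7 tested members, LPS against UT in each genotype (left) and cGAS-/- against WT in each condition (right). Points are limma estimates over 12 libraries, bars are 95% intervals, and filled points have an adjusted p under 0.05. Every LPS estimate is below 0, from -0.67 to -3.63, whereas no genotype estimate is filled.

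Expressed as a share of the UT mean of the same genotype, the level left after LPS differed more between the WT LPS libraries than between the cGAS-/- LPS libraries. The median over the 7 members was 22.4%, 42.3% and 12.7% in WT LPS replicates 1, 2 and 3, and 21.4%, 21.0% and 19.5% in the cGAS-/- LPS replicates. WT LPS replicate 2 kept 78.4% of the Mertk level and 66.7% of the Itgav level, while replicate 3 kept 14.5% and 37.0%. Gas6 kept the least in WT, 4.18% to 15.2%, and Havcr2 (5.26% to 9.31%), Gas6 (6.90% to 8.28%) and Itgb3 (7.36% to 14.6%) kept the least in cGAS-/- cells, with libraries that overlapped. Without WT LPS replicate 3 the WT differences ranged from -0.83 for Itgb3 to -2.95 for Gas6, against -0.30 for the median gene. Without replicate 2 they ranged from -1.09 to -3.83, against -0.64 for the median gene. With only the 6 WT libraries in the fit, 3 of 7 were called (Gas6, Mfge8 and Havcr2), where 6.02% of all genes were. With only the 6 cGAS-/- libraries all 7 were called, where 44.6% of all genes were, and library weights also gave 7 in cGAS-/- cells (48.3% of all genes).

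**Figure D3:**
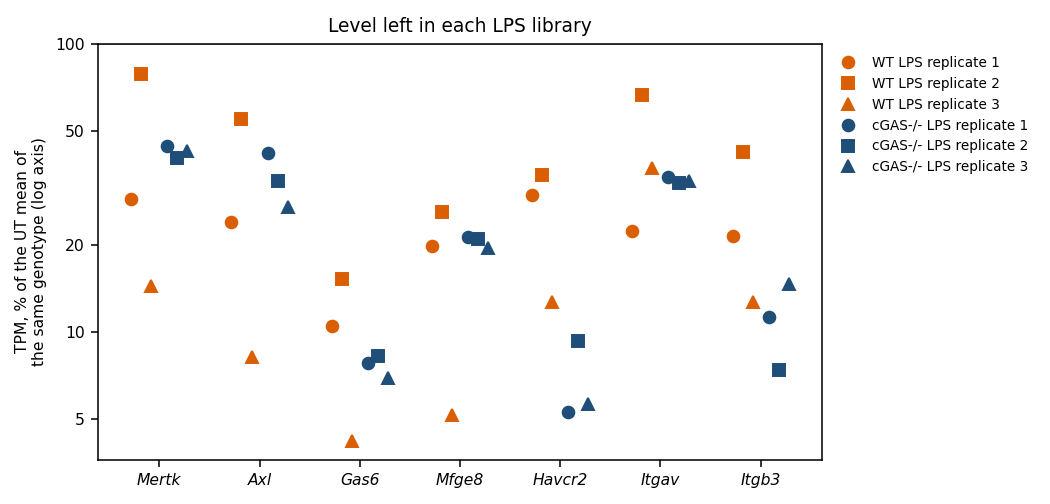
Level left in each LPS library as a percentage of the UT mean of the same genotype, on a log axis. Orange points are WT and blue points cGAS-/- libraries, with circle, square and triangle for replicates 1, 2 and 3. WT libraries spread widely, from 4.18% for Gas6 in replicate 3 to 78.4% for Mertk in replicate 2, and the 3 cGAS-/- libraries lie closer together than the 3 WT libraries for each gene.

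Without LPS, the genotypes differed in opposite directions among the members. The libraries of cGAS-/- and WT UT cells did not overlap for any of the 7 tested members, which was so for 30.5% of all genes. Mertk, Axl, Gas6 and Itgb3 had lower levels in cGAS-/- cells, so that the receptor and ligand side of the TAM pair lay on the same side. Mfge8, Havcr2 and Itgav had higher levels, so that Itgav and Itgb3, which encode partner chains, lay on opposite sides. None of the 7 had an adjusted p under 0.05 (limma, 1.83% of all genes called), and 3 had an unadjusted p under 0.05 (Axl, Itgav and Itgb3; 8.08% of all genes).

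The sizes were modest. Axl in cGAS-/- UT cells was at 0.510 of the WT mean (log2 difference -0.76, 95% interval -1.45 to -0.08, adjusted p = 0.492), and Itgb3 was at 0.410 (-0.68, -1.05 to -0.32, adjusted p = 0.0747). Itgav was 1.69-fold higher (0.70, 0.09 to 1.31, adjusted p = 0.459) and Havcr2 1.47-fold higher (0.52, -0.08 to 1.11, adjusted p = 0.786). Mfge8 was 1.32-fold higher (0.39, -0.40 to 1.17), Gas6 1.30-fold lower (-0.37, -1.19 to 0.44) and Mertk 1.21-fold lower (-0.26, -1.17 to 0.65), each with an adjusted p of 1. These intervals carry the spread of the WT LPS libraries, which are not part of the comparison.

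With only the 6 UT libraries in the fit, 6 of 7 members had an adjusted p under 0.05, where 10.4% of all genes did. The adjusted p-values of limma in that fit were 0.00896 for Gas6, 0.0185 for Itgav, 0.0192 for Mfge8, 0.0216 for Itgb3, 0.0283 for Havcr2 and 0.0299 for Axl, and Mertk was at 0.0746. Weighting each library by its own spread gave the same 6 members, where 11.5% of all genes were called. The estimates were within 0.03 of those over 12 libraries for each member, and the intervals were narrower. Which members were called in UT cells thus depended on how the spread was estimated.

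**Figure D4:**
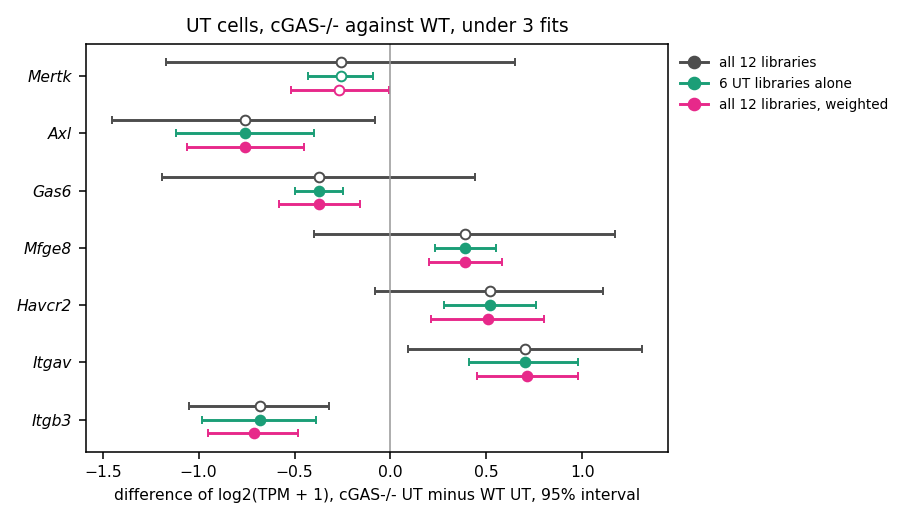
Differences of log2(TPM + 1) between cGAS-/- UT and WT UT cells under 3 limma fits, with 95% intervals. Filled points have an adjusted p under 0.05. The estimates lie in the same place in each fit, with 4 genes below 0 and 3 above, and the intervals from the 6 UT libraries alone are narrower than those from all 12 libraries.

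Markers of several other cell types were higher in WT UT than in cGAS-/- UT cells. The sum of 6 osteoclast markers was 185 to 194 TPM in WT UT and 89.0 to 99.6 TPM in cGAS-/- UT libraries. It came mainly from Atp6v0d2 and Ctsk. Calcr was at or near 0, and the means of Oscar (0.204 and 0.109 TPM) and Ocstamp (0.620 and 0.188 TPM) were low. Of the 5 platelet markers, Ppbp (13.6 against 0.727 TPM) and Gp9 (1.00 TPM against 0) were higher in WT UT than in cGAS-/- UT cells, and Itga2b, the platelet partner of Itgb3, was at 0.354 and 0.0956 TPM. The sum of 6 stromal markers, for fibroblasts that can supply Gas6, Axl and Mfge8, was 9.37 to 13.2 TPM in WT UT and 2.86 to 4.74 TPM in cGAS-/- UT libraries. Sums of 7 B cell markers (108 to 134 against 19.96 to 28.6 TPM) and 8 neutrophil markers (139 to 214 against 53.3 to 126 TPM) were also higher in WT UT than in cGAS-/- UT libraries. Sums of 6 erythroid markers (4.68 to 9.26 against 4.99 to 17.8 TPM) and 7 T and NK cell markers (0.339 to 0.540 against 0.485 to 0.642 TPM) overlapped. The part of these markers in the members' levels, of which Mfge8, Havcr2 and Itgav were higher in cGAS-/- UT cells, was not tested.

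With LPS, the genotypes overlapped for 6 of the 7 members. Itgb3 was the exception, with every cGAS-/- LPS library below every WT LPS library, where 17.7% of all genes did not overlap. None of the 7 had an adjusted p under 0.05 (limma, 2.36% of all genes called), and 2 had an unadjusted p under 0.05 (Havcr2 and Itgb3; 18.8% of all genes). Havcr2 was at 0.384 of the WT LPS mean (log2 difference -0.83, 95% interval -1.42 to -0.23, adjusted p = 0.151) and Itgb3 at 0.178 (-0.41, -0.78 to -0.05, adjusted p = 0.223). Mfge8 was 1.60-fold higher (0.72, -0.07 to 1.5) and Itgav 1.34-fold higher (0.43, -0.18 to 1.03), while Gas6 was at 0.592 (-0.55, -1.37 to 0.27), Axl at 0.599 (-0.29, -0.98 to 0.40) and Mertk at 0.860 of the WT LPS mean (0.07, -0.84 to 0.98). The sign for Mertk differed between the ratio of means and the log2 difference, with WT LPS replicate 2 at 16.8 TPM far above the other WT LPS libraries. Marker sums for B cells (30.7 to 45.0 against 3.08 to 8.89 TPM) and stromal cells (5.70 to 18.2 against 3.08 to 4.19 TPM) were higher in WT LPS than in cGAS-/- LPS libraries. The neutrophil, platelet, osteoclast, dendritic, erythroid and T and NK cell sums overlapped. The part of these markers in the members' levels was not tested.

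The genotype comparisons with LPS depended on the scaling and on single WT LPS libraries. With all 12 libraries, Havcr2 was called lower in cGAS-/- LPS cells under TMM factors (-0.97, limma adjusted p = 0.0217, 4.27% of all genes called). Under quantile normalization, Havcr2 (-1.03, limma adjusted p = 0.00845) and Itgb3 (-0.54, 0.0464) were called lower, where 4.61% of all genes were called. Without WT LPS replicate 3, Gas6 (-1.05, adjusted p = 0.00220) and Havcr2 (-1.13, adjusted p = 0.00246) were called lower in cGAS-/- LPS cells, where 8.27% of all genes were called (limma). Without replicate 2, Mfge8 (1.05, adjusted p = 0.0368) and Itgav (0.74, adjusted p = 0.0199) were called higher, where 28.5% of all genes were called. The direction for Mfge8, Havcr2, Gas6, Itgav and Itgb3 was the same in both cases, whereas that of Mertk and Axl was not. Sizes moved as well, with Mfge8 at 0.22 without replicate 3, Gas6 at -0.17 without replicate 2 and Itgav at 0.14 without replicate 1.

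The test of the difference in the LPS response between genotypes called none of the 7 members (limma, 0.9% of all genes called). Havcr2 alone had an unadjusted p under 0.05 (11.1% of all genes), with an interaction of -1.34 ± 0.38 on the log2(TPM + 1) scale (95% interval -2.18 to -0.50, adjusted p = 0.176), that is, a larger fall in cGAS-/- cells. This interaction was called under TMM factors (-1.57, adjusted p = 0.0268), quantile normalization (-1.62, adjusted p = 0.0103) and library weights (-1.55, adjusted p = 0.0440), and without WT LPS replicate 3 (-1.65, adjusted p = 0.00266, where 4.56% of all genes were called). For the other 6 members the interaction lay between -0.27 (Itgav) and 0.47 (Axl), with 95% intervals that reached from -1.33 to 1.62, so that an equal response of the genotypes is not shown.

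Across the 12 libraries the 7 members moved together, with Pearson correlations of log2(TPM + 1) from 0.504 (Itgav and Itgb3) to 0.964 (Gas6 and Havcr2) over 21 pairs. These values describe 12 points that share the LPS contrast and the spread of the WT LPS libraries. The genes with the pattern closest to Gas6 were Steap3 (r = 0.996), Atp6v0d2 (0.995), a proton pump subunit in the osteoclast list above, and Rnf144b (0.994). Closest to Mfge8 were Ago4, Mylip (the E3 ligase of the LDL receptor) and Cebpa (a myeloid transcription factor), at 0.993 to 0.994. Closest to Havcr2 were Tspan13 (0.988), Cd5l (0.987), a secreted scavenger protein of tissue macrophages that had 490 TPM in WT UT and 14.5 TPM in cGAS-/- LPS cells, and Cxcr4 (0.986). Mertk was closest to Scamp5, Pgap1 and Anxa4 (0.989 to 0.991), Axl to Mad2l1, Evl and C5ar2 (0.975 to 0.981), Itgav to Camk2d, Mef2a and Cdk19 (0.976 to 0.984), and Itgb3 to Evl (0.967) and Tns1 (0.964).

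Of 94 other genes of the uptake pathway, 67 were in the table and 57 were tested, 1 of them (Stab2) having passed the filter only through WT UT. In WT cells, 19 were called lower and 5 higher after LPS, with a median log2 difference of -0.74 against -0.46 for all genes. In cGAS-/- cells, 15 were called lower and 11 higher, with a median of -0.24 against -0.20. The share called lower, 19 of 57, compares with 23.3% of all genes in WT, and 15 of 57 with 9.06% in cGAS-/- cells. The share called higher, 5 of 57 and 11 of 57, compares with 4.31% and 4.76% of all genes. The pathway beyond the 9 members was thus mixed in direction, and the largest rise (Socs3) was greater than the largest fall in each genotype. The difference in response between the genotypes was called for 2 of the 57, Stab2 and Abca7 (0.9% of all genes). A call in 1 genotype alone thus does not show that the genotypes differ.

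Among 12 other tested uptake receptors, 7 fell and 1 rose in WT cells, and 3 fell and 3 rose in cGAS-/- cells. The difference in response between the genotypes was called for 1 of the 12, Stab2, so these counts do not show that the genotypes differ. The largest fall in both was that of Cd300lb, a lipid-binding activating receptor (-2.94 ± 0.45, adjusted p = 0.000953 in WT; -2.54 ± 0.45, adjusted p = 0.00305 in cGAS-/- cells). Msr1, the class A scavenger receptor, rose in both, from 16.0 to 18.7 TPM up to 45.1 to 158 TPM in WT libraries (2.41 ± 0.39, adjusted p = 0.00119) and by 1.78 ± 0.39 in cGAS-/- cells (adjusted p = 0.00974; limma). Lrp1, the receptor that works with calreticulin, fell in WT cells (-2.53 ± 0.59, adjusted p = 0.00996). Its difference in cGAS-/- cells was -1.79 ± 0.59 (limma adjusted p = 0.0708). Itgam and Scarf1 rose in cGAS-/- cells (1.66 ± 0.40, adjusted p = 0.0184, and 1.19 ± 0.36, adjusted p = 0.0475).

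Among 6 other tested bridges, Thbs1 (thrombospondin 1, which links phosphatidylserine-bearing cells to CD36 and alpha v beta 3) rose in both genotypes, by 2.87 ± 0.44 (adjusted p = 0.000929) and 3.19 ± 0.44 (adjusted p = 0.000561; limma). It went from a mean of 14.97 to 142 TPM in WT and from 20.7 to 197 TPM in cGAS-/- cells, opposite to Gas6 and Mfge8. C1qc and Tgm2 fell in cGAS-/- cells (-1.38 ± 0.39, adjusted p = 0.0390, and -1.33 ± 0.39, adjusted p = 0.0452). In WT cells their differences were -0.85 ± 0.39 and -0.58 ± 0.39 (limma adjusted p = 0.124 and 0.277). C1qa, a chain of the complement protein that opsonises dying cells, was the list's 1 called gene between genotypes with LPS, at 1486 ± 703 TPM in WT LPS and 483 ± 24.1 TPM in cGAS-/- LPS cells (-1.47 ± 0.34, adjusted p = 0.0486).

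Of the integrin partners, Itgb1, the more abundant of the 2 tested, was at 80.3 ± 0.806 TPM in WT UT and 52.0 ± 18.1 TPM in WT LPS cells (-0.68 ± 0.27, adjusted p = 0.0772). Itgb8, which pairs with alpha v to activate latent TGF-beta, rose in cGAS-/- cells from at most 0.0295 TPM to 1.99 to 2.26 TPM (1.61 ± 0.17, adjusted p = 9.07e-05), and was higher in cGAS-/- than in WT cells with LPS (1.13 ± 0.17, adjusted p = 0.00647; limma). In WT cells its mean went from 0.0279 to 0.447 TPM without overlap (0.47 ± 0.17, limma adjusted p = 0.0634). The interaction was not called (limma adjusted p = 0.0572). Itgb8 passed the filter through the 3 cGAS-/- LPS libraries, where it is high, and 1 WT LPS library, so both calls are conditional on that group (adjusted p = 0.000306 and 0.0155 with no filter on low values). The signal regulatory protein Sirpa, the receptor for the don't-eat-me signal CD47, fell in WT cells (-1.21 ± 0.41, adjusted p = 0.0460).

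Of 9 tested engulfment signalling genes, 4 were lower in WT and 3 were lower and 1 higher in cGAS-/- cells. Elmo1, Dock1 and Vav3, which activate Rac at the phagocytic cup, were those lower in both, led by Vav3 (-1.34 ± 0.26, adjusted p = 0.00402, and -1.21 ± 0.26, adjusted p = 0.00963; limma), and Src rose in cGAS-/- cells (0.74 ± 0.18, adjusted p = 0.0168). Of 11 corpse processing genes, Dnase2a, the lysosomal nuclease that degrades the DNA of engulfed cells, fell by 1.54 and 1.30 on the log2 scale in WT and cGAS-/- cells (adjusted p = 0.0104 and 0.0346), together with Ctsd, and none of the 11 was called higher.

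The 10 tested lipid response genes moved in both directions. Pparg, a nuclear receptor induced by lipids of engulfed cells, fell to a fraction of its UT level in both genotypes (-2.68 ± 0.22, adjusted p = 1.47e-05, and -3.23 ± 0.22, adjusted p = 4.57e-06), whereas Nr1h3 (LXR alpha), which drives Mertk transcription in macrophages, rose (1.91 ± 0.31, adjusted p = 0.00123, and 1.96 ± 0.31, adjusted p = 0.00136; limma). Mertk was lower with LPS in both genotypes, with the call in WT alone, and a relation to Nr1h3 was not tested. Socs3, a feedback inhibitor of cytokine signalling, showed the largest rise of all lists, 4.77 ± 0.35 in WT and 6.08 ± 0.35 in cGAS-/- cells (adjusted p = 7.18e-06 and 1.34e-06). Of the proteases that shed MerTK and Axl from the cell surface, Adam10 fell in cGAS-/- cells (-1.02 ± 0.30, adjusted p = 0.0427). Its difference in WT cells was -0.52 ± 0.30 (limma adjusted p = 0.201). Adam17 had log2 differences of -0.66 ± 0.37 and 0.64 ± 0.37 in WT and cGAS-/- cells, with adjusted p-values of 0.191 and 0.324.

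**Figure D5:**
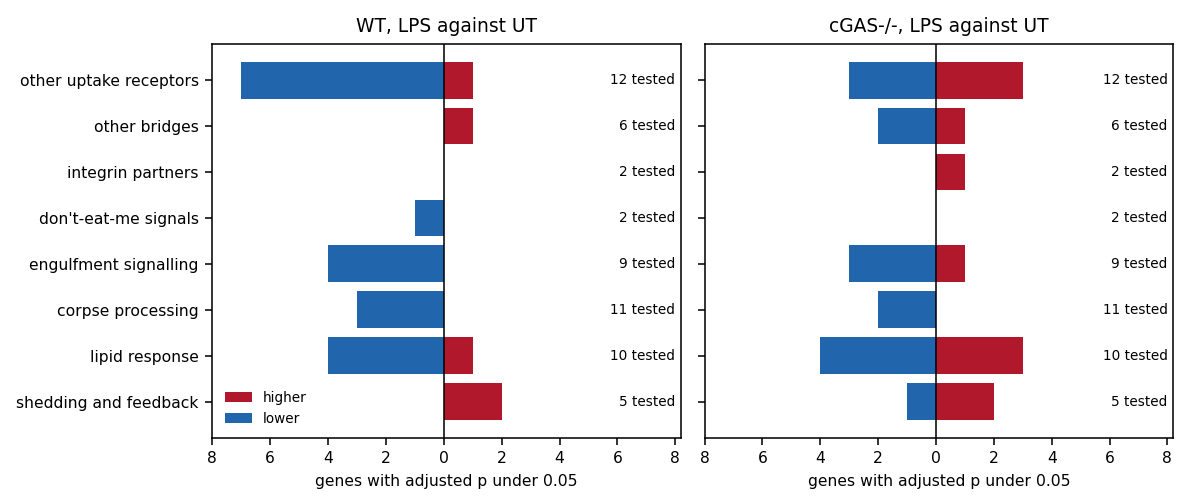
Number of genes of 8 other lists of the uptake pathway with an adjusted p under 0.05 after LPS, in WT (left) and cGAS-/- cells (right). Blue bars to the left count genes that were lower and red bars to the right genes that were higher, with the number tested at the right edge. Other uptake receptors count 7 lower and 1 higher in WT and 3 and 3 in cGAS-/- cells, where 23.3% (WT) and 9.06% (cGAS-/-) of all genes were called lower.

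Between genotypes, the other pathway genes called were few. In UT cells it was Stab2 alone, a scavenger receptor that binds phosphatidylserine, at 1.06 ± 0.211 TPM in WT and 0.0911 ± 0.0735 TPM in cGAS-/- cells (-0.91 ± 0.13, adjusted p = 0.00345; limma). Stab2 passed the filter only through the 3 WT UT libraries, where it is high, and was not tested when any of these was left out, so its call is conditional on that group. With LPS these were Itgb8, Abca7 and C1qa. Abca7, a lipid transporter that supports phagocytosis, was at 2.85 ± 1.25 TPM in WT LPS and 8.22 ± 0.735 TPM in cGAS-/- LPS cells (1.30 ± 0.23, adjusted p = 0.0141), and it was higher with LPS in cGAS-/- cells (1.12 ± 0.23, adjusted p = 0.00651). Several of these calls on other pathway genes were close to the threshold. With each of the 12 libraries left out in turn, the LPS call was lost 11 times for Sirpa in WT cells, 10 times for Scarf1 and Tgm2, 9 times for C1qc, Adam10, Dnase2a and Dock1 and 6 times for Itgam, Elmo1, Ctsd and Src in cGAS-/- cells, and the genotype call with LPS was lost 10 times for C1qa and 3 times for Abca7. The calls of Cd300lb, Msr1, Thbs1, Pparg, Nr1h3 and Socs3 were kept in each of these fits.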

How the data were processed

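RNA was measured in 12 libraries of mouse BMDMs, 3 for every combination of genotype (WT or cGAS-/-) and treatment (UT or LPS), grouped by their labels. Per the labels, libraries were made with a stranded mRNA kit, and the submitters' processing notes name fastp, STAR, kallisto and GRCm39. The authors deposited 1 table of normalized values, taken here as TPM averaged over the transcripts of each symbol, a reading inferred from the values. The column totals differ and the number of reads is unknown, so counting error could not be given. The table stops on chromosome 13, and genes beyond it, such as Pros1 and Cd47, were not analysed here.

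Genes with at least 1 TPM in at least 3 of 12 libraries, once each library had been scaled to an equal sum (used for this filter alone), were tested (11887 genes). Values were log2(TPM + 1). Limma 3.58.1 in R 4.3.3 was fitted over all 12 libraries with 1 mean per group, moderated variances with a trend, and Benjamini-Hochberg adjustment over all genes tested; calls are at an adjusted p under 0.05. The fit was tested on simulated data. Alternatives were another pseudocount, filter, scaling, weighting or set of libraries, a replicate block, no trend, and leaving out each library. Gene coordinates are from GENCODE on GRCm39.

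The members and lists were chosen with earlier results of these data known. Named genes are all members, Cgas, the largest called rise and fall of each list, list genes needed to understand a count, and the 3 tested genes best correlated with each member; some genes that this rule names are not reported here.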

Additional observations from a re-analysis of the deposited data

Results flagged for a closer look

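The LPS response of Stab2 and of Abca7 had an adjusted p under 0.05 for the difference between the genotypes (interaction term of limma over all 12 libraries). For Stab2 the difference was 0.91 ± 0.18 on the log2(TPM + 1) scale (adjusted p = 0.0461), with 0.879 to 1.29 TPM in WT UT, 0 in all WT LPS, 0.0427 to 0.176 TPM in cGAS-/- UT and at most 0.00644 TPM in cGAS-/- LPS libraries, so that in cGAS-/- cells the gene was near 0 already without LPS. Stab2 passed the filter only through the 3 WT UT libraries, where it is high, so this test is conditional on that group and is given as a description (with no filter on low values the adjusted p was 0.0117). For Abca7 the difference was 1.59 ± 0.32 (adjusted p = 0.0494), with the level higher after LPS in each cGAS-/- library and overlapping in WT. The call held in 5 of 18 alternatives for Stab2 (adjusted p from 0.0117 to 0.291) and in 8 of 22 for Abca7 (0.00182 to 0.167).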

How the results depend on the processing

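No LPS difference of a tested member changed sign under any of the alternatives, 160 in each genotype. In WT cells, 149 kept their side of the threshold and 11 lost it (all of Mertk, Axl, Itgav or Itgb3), and in cGAS-/- cells 5 lost and 9 gained it. The count of members called, 7 in WT, was 3 with only the samples compared (6.02% of all genes called), and 5 to 7 with 1 library left out. In cGAS-/- cells it was 4 to 7 with 1 library left out, 7 with only the samples compared (44.6%) and 7 with sample weights (48.3%), against 5. Without WT LPS replicate 2 or 3, 20.9% and 31.2% of all genes were called in cGAS-/- cells. The share was not computed for the other LPS fits with 1 library left out. Between genotypes in UT cells, the count of 0 became 1 with a pseudocount of 5 (Itgb3; 2.66% of all genes called), 6 with sample weights and 6 with only the samples compared, and 0 to 1 with 1 library left out (Itgb3, without WT LPS replicate 2 or 3). With LPS, the count of 0 became 1 under TMM factors (Havcr2, 4.27% of all genes), 2 under quantile normalization (Havcr2 and Itgb3, 4.61%), and 0 to 2 with 1 library left out. For the interaction, the count of 0 became 1 (Havcr2) under TMM factors (1.13% of all genes), 1 under quantile normalization (1.18%), 1 with sample weights (2.46%), and 0 to 1 with 1 library left out. The cGAS-/- minus WT difference of Mertk with LPS, 0.07, turned to -0.01 with a pseudocount of 5, -0.08 under TMM factors, -0.18 under quantile normalization, -0.10 with sample weights, and ranged from -0.42 (without WT LPS replicate 3) to 0.64 (without replicate 2) with 1 library left out. That of Axl ranged from -0.65 (without WT LPS replicate 3) to 0.09 (without replicate 2). With 1 library left out, the interaction ranged from -0.16 to 0.90 for Mertk, from -0.68 to 0.21 for Gas6 and from -0.17 to 0.66 for Mfge8 (lowest without WT LPS replicate 3 and highest without replicate 2), and from -0.56 (without replicate 1) to 0.04 (without replicate 2) for Itgav. It turned to 0.02 for Gas6 after rescaling to a common total, to -0.02 for Mfge8 with sample weights, and to -0.32 for Itgb3 with a pseudocount of 0.1. None of these reversed values was called. The causes of these changes were not tested. Itgb3 had no value under the stricter filter, which left it out. TMM factors moved the median gene in WT from -0.46 to -0.14, and relative to the median gene the LPS differences of members lay between -0.49 and -2.99 in WT cells, and between -0.47 and -3.43 in cGAS-/- cells. The 56 called changes of other pathway genes kept their direction in all 1271 alternatives and lost the call in 233.

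The replicate numbers did not pair the samples, since the 18 correlations between same-numbered samples ran from -0.0315 to 0.0383. With the replicate block, the members called were 7 and 5 for LPS in WT and cGAS-/- cells and 0 for each other comparison, as without it, and the call of Stab2 (adjusted p = 0.119) and Abca7 (adjusted p = 0.106) for the interaction was lost.

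Read depth is unknown, and differences of Tyro3, Timd4 and, in cGAS-/- LPS cells, Itgb3 were not detectable with a known precision.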
